A study of Mus musculus with 24 samples.

Results

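The genes described here are 52 genes of mitosis and the kinetochore, among them the mitotic kinase Cdk1, the B-type cyclins, the chromosomal passenger complex, the Ndc80 complex, the spindle checkpoint, the mitotic kinesins and condensin. They were taken from a list of gene symbols and found by matching the RefSeq transcript of each array probe to its symbol. All 52 were on the array, which carried 19722 named genes, and all 52 were among the 15895 genes tested. They were read by 69 probes. Measured values played no part in the rule, although the list was drawn up with earlier results of these data known.

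The study followed gene expression in the lung after birth. Whole lungs of healthy C57BL/6 mice were taken at postnatal days 1, 4, 7 and 14 (n = 5 each) and day 42 (n = 4), with no treatment or transgene at any age. Fetal lungs are named in the title of the series, but all samples are labelled postnatal, and the labels give neither the sex of the mice nor whether a replicate is 1 animal, so that p-values measure the spread between these samples only. Total RNA was labelled with Cy3 and each sample hybridized to 1 single-colour array, on 3 slides that each held all 5 ages. The replicate number of 1 day 14 sample differs between its labels (4 in the title, 3 in the source name), and the title was followed.

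Mitosis begins when Cdk1, bound to a cyclin, is switched on, and it ends when the anaphase-promoting complex marks cyclins and securin for destruction. In between, kinetochores built on the centromere attach each chromosome to spindle microtubules, the checkpoint holds the cell until all are attached, and kinesins and condensin shape the spindle and the chromosomes. The transcripts of most of these proteins are made late in the cell cycle of dividing cells and are scarce in resting ones, so that they are widely used as markers of proliferation. In the mouse the lung is at the saccular stage at birth, forms alveoli over the following weeks and grows mainly by enlargement afterwards.

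A scaled log2 signal below is log2 of the background-subtracted spot intensity minus the 75th percentile of that array, so that 0 is the brightness of the 75th percentile. Signals of different probes cannot be ranked against each other. A difference is the later age minus the earlier one, in log2 units, ± SE from 1 limma fit over all 24 arrays, with p-values adjusted by Benjamini and Hochberg over all genes tested. A gene passed the test at an adjusted p under 0.05. Within an age, values are listed in the order of replicates 1 to 5 (1 to 4 at day 42). In whole lung, fewer dividing cells and less of a transcript per dividing cell cannot be told apart.

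The share of spots well above background was 50.4% to 79.7%, and the 75th percentile used for scaling was 476.1 to 1652.7 intensity units. The share was lowest on 5 arrays (numbers 4 and 5 of day 1, numbers 1 and 3 of day 4, and number 4 of day 42), which also stood apart on the first principal component of all genes. On day 1 replicates 4 and 5 the mean of 25 members was above that of the other 3 day 1 arrays, and that of 27 members was below it. The counts over all members, by role and for the other lists are therefore also given without these 5 arrays. Day 14 replicate 5 is described on its own further on. The markers of alveolar epithelium, endothelium and lung mesenchyme (18 genes in 4 lists) were well above background on all 24 arrays. At day 14 against day 7, 1 of 5 type 2 and 1 of 4 type 1 epithelial markers were higher, and 4 of 5 and 4 of 4 without the 5 arrays. Against day 1, 0 of 5 and 1 of 4 were higher at day 42, and again 4 of 5 and 4 of 4 without them. Of 5 endothelial markers 0 were higher at day 14 and 1 at day 42, and 2 and 3 without the 5 arrays. Of 4 mesenchymal markers 1 was higher at day 14, and at day 42 3 were lower and 1 higher, with and without the 5 arrays. Over all genes tested 6.02% were higher at day 14 and 13.1% at day 42, and 20.4% and 22.7% without the 5 arrays. At day 42 13.7% of all genes were lower, and 23.9% without them. Markers of other tissues were summed as linear signal relative to the 75th percentile. For 7 red cell precursor genes the sum was 46.8 to 71.0 at day 14, against 30.4 to 54.8 at day 7, and 8.02 to 22.3 at day 42, against 37.4 to 118.2 at day 1. For 6 cardiac muscle genes it was 53.8 to 262.0 at day 14, against 9.87 to 131.6 at day 7, and 71.3 to 202.5 at day 42, against 29.6 to 842.9 at day 1. For 5 neutrophil precursor genes, of which Ms4a3 was well above background on 0 arrays, it was 3.76 to 5.22 at day 14, against 2.04 to 7.14 at day 7, and 3.16 to 13.1 at day 42, against 2.87 to 34.5 at day 1. For 6 thymocyte genes it was 0.504 to 3.18 at day 14, against 0.281 to 0.486 at day 7, and 0.653 to 1.61 at day 42, against 0.226 to 0.615 at day 1, with no overlap in either pair. The part of these cell types and tissues in the members' differences was not tested.

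Most members (46 of 52) fell over the 6 weeks, and on the log2 scale the largest step lay in the week before day 14. The median member stood at 61.7% of its own day 1 level at day 4, 53.9% at day 7, 14% at day 14 and 11.6% at day 42. On the other 19 arrays these figures were 60.2%, 46.3%, 11.2% and 9.6%. The lower and upper quartiles of the members were 7.33% and 23.4% of the day 1 level at day 14, and 8.2% and 16.5% at day 42. The other 6 were Pttg1, Kif18a, Kif20b, Hmmr, Smc2 and Smc4. By the moderated F-test over the 5 ages, with all arrays, 45 of 52 members changed, against 31.8% of all genes tested. The 7 that did not pass were Bub1, Pttg1, Kif18a, Kif20b, Hmmr, Smc2 and Smc4. Without the 5 arrays 50 members passed the F-test, but no share of all genes is given for it in that setting. More genes of any kind passed there. At day 14 against day 7, 6137 of all genes tested passed in limma without the 5 arrays, against 1842 with all arrays.

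**Figure D1:**
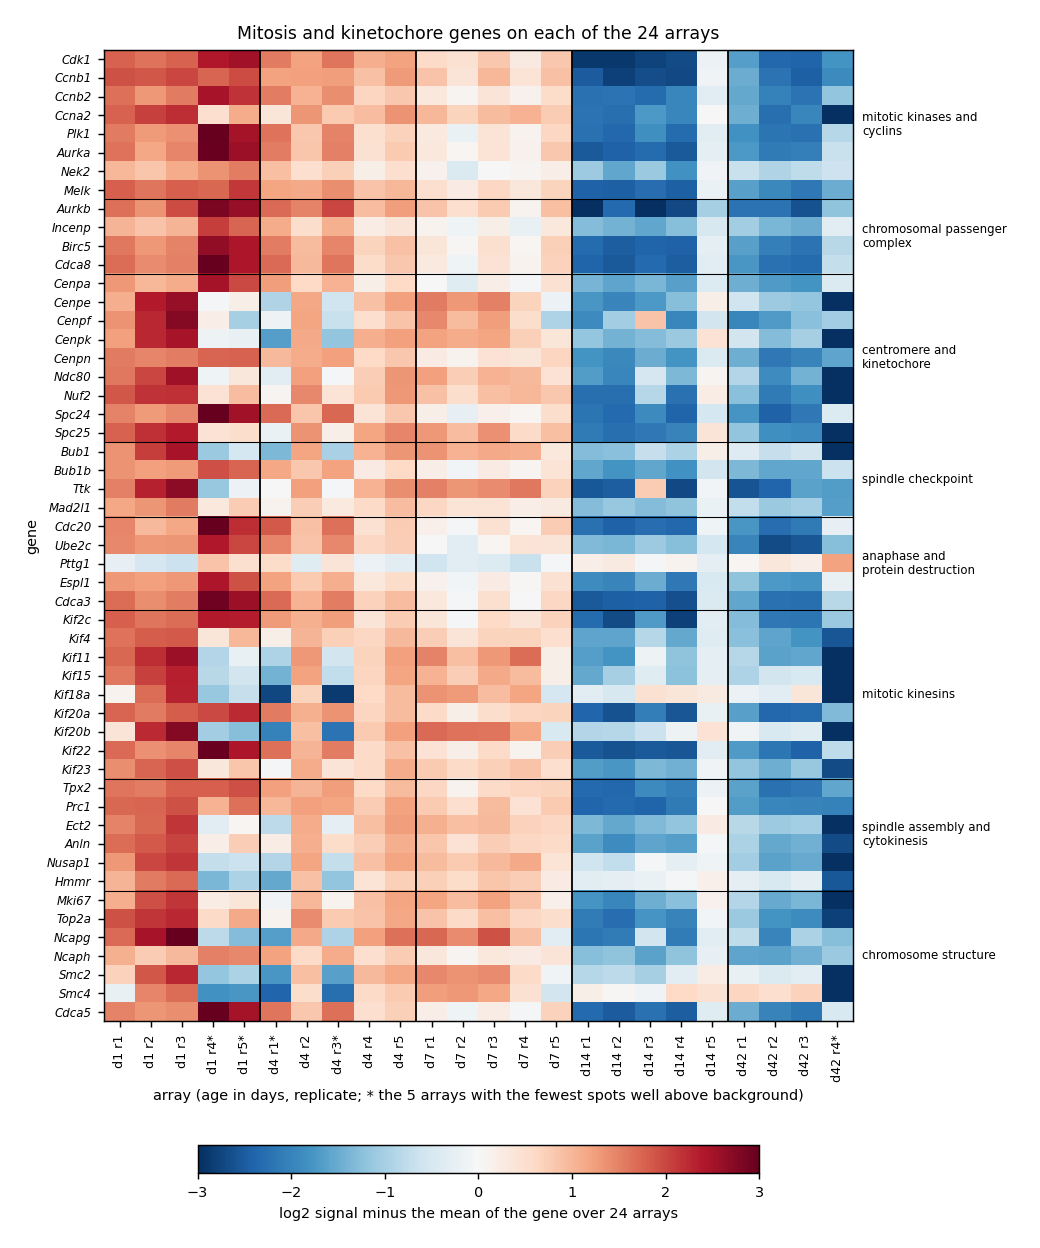
Heat map of the 52 members (rows, grouped by role) on the 24 arrays (columns, by age in days and replicate), coloured by the log2 signal minus the mean of the gene over all arrays. Red (high) fills days 1 to 7 and blue (low) fills days 14 and 42 for most genes, and day 14 replicate 5 is pale. Pttg1 does not share this step, and its ages overlap. The 5 starred arrays have the lowest shares of spots well above background.

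Over the 24 arrays, 31 members had a correlation above 0.9 with the median of the other members, and 46 did without the 5 arrays. These arrays share ages and slides, so the correlations describe the pattern and carry no test. Without the 5 arrays the lowest were -0.87 for Pttg1 and 0.4 for Smc4, and the other 50 members had at least 0.69.

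Because so many members moved together, their promoters were read for the letters that late cell-cycle genes are known to share. These are the cell cycle homology region, TTTGAA, to which repressor complexes of resting cells bind in such promoters, and CCAAT, the letters of the NF-Y binding box. RefSeq promoter windows of mouse build GRCm38.p6, from 250 bases before to 50 bases after a gene's start, were at hand for 45 members. Entries were absent for Kif20a, Smc4, Ccna2, Spc24, Incenp, Aurkb and Tpx2. On either strand, TTTGAA was in the window of 32 of 45 members (71.1%), against 14.9% of 12577 other genes tested and 20.2% of all genes in the table. CCAAT was in 31 members (68.9%), against 42.1% of the other genes tested and 41.1% of all genes. Both were in 1 window for 26 members (57.8%), against 5.83% and 7.97%. The variant TTCGAA, which reads alike on both strands, was in 3 members (6.67%), against 2.35% and 1.8%. Of the 35 members in the table that fell at day 14 against day 7, 27 (77.1%) held TTTGAA, and of the 10 that did not pass that test, 5 (50%) did. Without the 5 arrays all of these 10 but Pttg1 and Kif18a were lower as well. The split therefore depends on the arrays used, and the 2 shares were not tested against each other. A match is a run of letters and not a shown binding site, and its absence from a window says nothing of a factor.

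The stretches from 120 bases before to 30 after the start (150 bases) are shown for 6 members that fell and hold TTTGAA and CCAAT, and for Pttg1, which did not pass the test. They run 5′ to 3′ along the gene, and capitals mark the motifs on either strand, so that the homology region also appears as TTCAAA and the box as ATTGG. No match overlaps another.
Cdk1 chr10:69352883-69353032 (- strand): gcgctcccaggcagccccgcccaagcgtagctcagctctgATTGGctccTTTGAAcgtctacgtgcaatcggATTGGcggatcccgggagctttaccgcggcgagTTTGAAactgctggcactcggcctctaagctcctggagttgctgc
Ccnb2 chr9:70421525-70421674 (- strand): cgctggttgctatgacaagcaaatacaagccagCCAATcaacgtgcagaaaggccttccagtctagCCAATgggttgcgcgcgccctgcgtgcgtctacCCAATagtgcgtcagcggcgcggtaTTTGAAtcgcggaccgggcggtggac
Cdc20 chr4:118437314-118437463 (- strand): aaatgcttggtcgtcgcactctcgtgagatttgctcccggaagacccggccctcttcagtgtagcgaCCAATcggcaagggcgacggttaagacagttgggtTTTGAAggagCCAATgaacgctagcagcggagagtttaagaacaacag
Cenpa chr5:30666766-30666915 (+ strand): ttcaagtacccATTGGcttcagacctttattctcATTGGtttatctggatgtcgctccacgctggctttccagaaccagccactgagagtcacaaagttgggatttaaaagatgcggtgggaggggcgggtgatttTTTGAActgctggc
Kif11 chr19:37376262-37376411 (+ strand): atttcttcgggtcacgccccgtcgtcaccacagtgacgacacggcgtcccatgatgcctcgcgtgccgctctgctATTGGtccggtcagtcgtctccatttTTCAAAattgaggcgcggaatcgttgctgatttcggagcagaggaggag
Top2a chr11:99024160-99024309 (- strand): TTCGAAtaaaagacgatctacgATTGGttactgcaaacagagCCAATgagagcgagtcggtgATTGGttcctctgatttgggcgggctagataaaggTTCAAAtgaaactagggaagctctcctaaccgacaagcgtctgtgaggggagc
Pttg1 chr11:43425952-43426101 (- strand): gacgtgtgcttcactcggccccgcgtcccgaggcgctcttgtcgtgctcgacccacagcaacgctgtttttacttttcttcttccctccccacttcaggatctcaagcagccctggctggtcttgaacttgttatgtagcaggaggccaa
In these stretches TTTGAA begins at -71 and -15 from the start in Cdk1, at 5 in Ccnb2, at -18 in Cdc20 and at 17 in Cenpa. On the opposite strand it spans -19 to -14 in Kif11 and -23 to -18 in Top2a. Ccnb2 and Top2a hold 3 copies of CCAAT each, Cdk1, Cdc20 and Cenpa hold 2, and Kif11 holds 1. Top2a also holds the variant at its 5′ end, and the Pttg1 stretch holds none of the 3 motifs. That is not particular to Pttg1: the windows of Birc5, Melk, Mad2l1, Ncaph and Nuf2, which were lower at day 14, hold none either, nor do those of Nusap1 and Kif18a.

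On the log2 scale the largest step was the one between day 7 and day 14. The steps span unequal times, and rates per day were not compared. In percent of its day 1 level the median member went to 61.7% by day 4, and from 53.9% at day 7 to 14% at day 14. At day 14, 41 of 52 members were lower than at day 7 and 0 were higher, against 5.57% of all genes tested that were lower and 6.02% that were higher. The median difference was -2.03, beside 0.02 over all genes tested, and 51 of 52 differences were negative, against 47.7% of all genes. In 41 members every day 14 array lay below every day 7 array, against 8.28% of all genes tested. Within slides 1, 2 and 3 the median difference was -2.47, -2.32 and -1.4, and 51 members were lower on all 3. Slide 3 held day 14 replicate 5.

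The 11 members that did not pass at day 14 against day 7 were Cenpf, Cenpk, Bub1, Pttg1, Kif15, Kif18a, Kif20b, Nusap1, Hmmr, Smc2 and Smc4. All but Pttg1 had differences below 0, from -1.84 to -0.49. The same 10 had lower means on day 1 replicates 4 and 5 than on the other day 1 arrays, with differences of -2.17 (Cenpk) to -2.95 (Kif20b) in log2 units. This was not particular to them. Of all members 27 were lower there, among them Ncapg (-3.46), Ttk (-2.83) and Kif11 (-2.71), which passed at day 14 against day 7. Neither day 7 nor day 14 holds any of the 5 arrays, so that leaving these out changed the estimate of spread and not the differences. With them left out 49 members were lower and 1 was higher, against 18.2% of all genes that were lower and 20.4% that were higher. The 41 were among the 49, the member that was higher was Pttg1, and Smc4 and Kif18a did not pass. By role these were 8 of 8 kinases and cyclins, 4 of 4 passenger genes, 9 of 9 kinetochore genes, 4 of 4 checkpoint genes, 4 of 5 genes of anaphase, 8 of 9 kinesins, 6 of 6 genes of spindle assembly and 6 of 7 of chromosome structure.

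**Figure D2:**
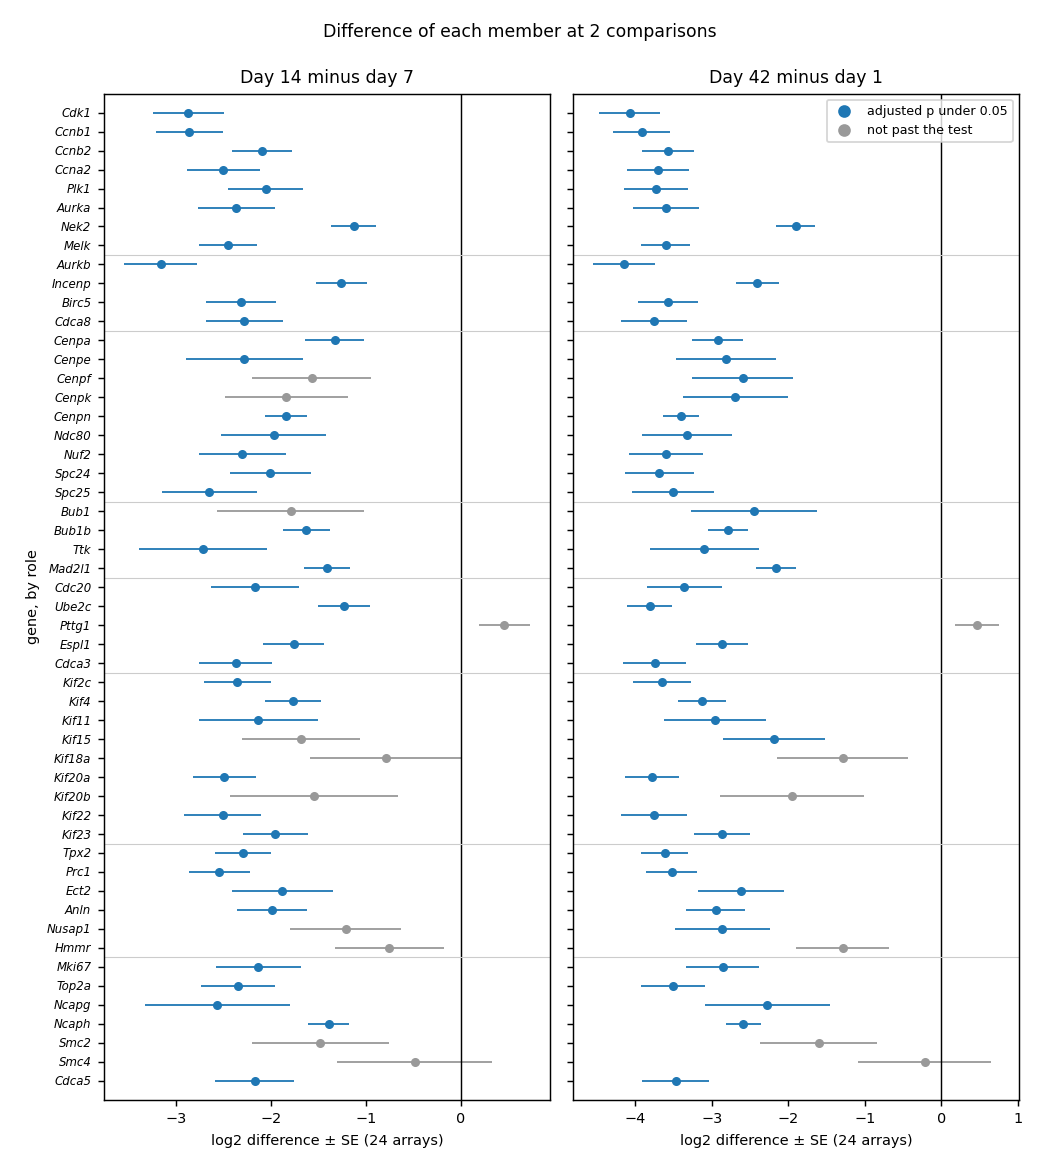
Log2 difference ± SE of each of the 52 members, grouped by role, for day 14 minus day 7 (left) and day 42 minus day 1 (right), from the fit over 24 arrays. Blue points passed the test (41 on the left, 46 on the right, all below 0) and grey points did not; Pttg1 is the one point to the right of 0 in both panels.

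All 8 mitotic kinases and cyclins fell, with a median difference of -2.41 at day 14 against day 7 and -3.65 at day 42 against day 1. Cdk1, the kinase that drives entry into mitosis, had scaled log2 signals of 1.67, 1.52, 1.66, 2.3 and 2.41 at day 1, 1.44, 1.1, 1.49, 0.97 and 1.11 at day 4, and 0.46, 0.34, 0.71, 0.15 and 0.7 at day 7. Cdk1 then had -3.01, -3.01, -2.89, -2.79 and -0.29 at day 14, and -1.76, -2.46, -2.52 and -1.9 at day 42. Every day 4 array lay below every day 1 array and every day 7 array below those of day 4, and day 14 replicate 5 stood well above its age. The difference was -2.87 ± 0.37 at day 14 against day 7 (adjusted p = 2.78e-05) and -4.07 ± 0.4 at day 42 against day 1 (adjusted p = 6.71e-08). Ccnb1, the main cyclin partner of Cdk1 at mitotic entry, had scaled log2 signals of 2.87, 2.82, 2.96, 2.71 and 2.92 at day 1, 2.17, 2.19, 2.22, 1.85 and 2.23 at day 4, and 1.82, 1.35, 1.95, 1.36 and 1.84 at day 7. Ccnb1 then had -1.54, -1.84, -1.71, -1.74 and 0.85 at day 14, and -0.53, -1.26, -1.49 and -0.96 at day 42. The SD was smallest at day 1 (0.098), and no day 14 or day 42 array reached the day 7 range. Ccnb1 differed by -2.86 ± 0.35 at day 14 against day 7 (adjusted p = 2.02e-05) and by -3.92 ± 0.37 at day 42 against day 1 (adjusted p = 5.19e-08). Plk1, the polo-like kinase of spindle poles and mitotic entry, had scaled log2 signals of 3.4, 3.12, 3.21, 4.92 and 4.34 at day 1, 3.46, 2.65, 3.32, 2.31 and 2.54 at day 4, and 2.14, 1.65, 2.24, 1.95 and 2.46 at day 7. Plk1 then had -0.4, -0.51, 0.00, -0.47 and 1.53 at day 14, and 0.03, -0.36, -0.4 and 0.99 at day 42. Its highest values were on day 1 replicates 4 and 5, and the ages of days 1, 4 and 7 overlapped in part. The difference at day 14 against day 7 was -2.06 ± 0.4 (adjusted p = 0.00107).

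Ccnb2, a further B-type cyclin, and Ccna2, the cyclin of DNA synthesis and early mitosis, differed by -2.1 ± 0.32 and -2.5 ± 0.39 at day 14 against day 7. Aurka, the kinase of centrosomes and spindle poles, had -2.36 ± 0.41, and Melk, a kinase of dividing cells, had -2.45 ± 0.3. Nek2, which helps centrosomes part, had the smallest difference of the group at -1.13 ± 0.24. These 5 had adjusted p = 2.18e-05 to 0.00227 there and differences of -3.71 to -1.9 at day 42 against day 1 (adjusted p = 2.54e-08 to 4.38e-06).

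Cdk1 was read by 3 probes that did not move alike. Probe A_55_P2048588, which stands for the gene above, was well above background on all 24 arrays. Probe A_55_P2016652 was so on 17 arrays and differed by -2.94 ± 0.43 at day 14 against day 7 (adjusted p = 9.61e-05 over all probes tested). Probe A_55_P2016647 was so on 12 arrays and was higher at day 14 by 1.08 ± 0.29 (adjusted p = 0.0157). At day 42 against day 1 it differed by -0.51 ± 0.31 (adjusted p = 0.247), against -3.88 ± 0.46 for A_55_P2016652. Which Cdk1 transcripts these probes match was not examined. In all, 13 members had more than 1 probe, 9 of them 2 and 4 of them 3. Apart from Cdk1, the probes of a member that fell at day 14 against day 7 were all lower and lay within 0.58 of each other, except for a Nuf2 probe that was well above background on 0 arrays.

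All 4 subunits of the chromosomal passenger complex, which corrects faulty spindle attachments and then guides cytokinesis, fell as well. Their median difference was -2.3 at day 14 against day 7 and -3.67 at day 42 against day 1. Aurkb, the kinase of the complex, had scaled log2 signals of -2.39, -2.69, -2.08, -1.22 and -1.44 at day 1, -2.34, -2.55, -2.04, -3.12 and -2.78 at day 4, and -3.19, -3.53, -3.27, -3.94 and -3.15 at day 7. Aurkb then had -7.63, -6.38, -7.1, -6.75 and -5.04 at day 14, and -6.27, -6.26, -6.65 and -5.25 at day 42. It was well above background on all arrays of days 1, 4 and 7, on 1 of 5 at day 14 and on 0 of 4 at day 42. The fitted difference of Aurkb was -3.16 ± 0.38 (adjusted p = 1.92e-05) at day 14 against day 7, with day 14 measured above background on replicate 5 only. At day 42 only a bound can be given: Aurkb was at least 13-fold lower than at day 1 (adjusted p = 7.53e-08). Such a bound sets the mean of the brighter age against the lowest signal well above background on each array of the dimmer one, or the probe's own signal where that is higher. The adjusted p printed beside a bound, here and below, is that of the fitted limma difference and does not test the bound. Birc5, known as survivin, had scaled log2 signals of 4.62, 4.33, 4.52, 5.7 and 5.45 at day 1, 4.57, 3.99, 4.5, 3.69 and 3.92 at day 4, and 3.4, 3.07, 3.51, 3.1 and 3.76 at day 7. Birc5 then had 0.73, 0.57, 0.63, 0.6 and 2.74 at day 14, and 1.4, 0.99, 0.83 and 2.19 at day 42. Day 14 replicate 5 and day 42 replicate 4 were the high arrays of their ages, and both stayed below every day 7 array. Birc5 differed by -2.32 ± 0.37 at day 14 against day 7 (adjusted p = 0.000186). Incenp, the scaffold, differed by -1.26 ± 0.27 (adjusted p = 0.00271) and Cdca8, known as borealin, by -2.28 ± 0.4 (adjusted p = 0.000487). Between 2 and 3 probes each for Birc5, Cdca8 and Incenp gave differences in the same direction.

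Of the 9 genes of the centromere and kinetochore, 7 were lower at day 14 than at day 7 (median -1.97) and all 9 were lower at day 42 than at day 1 (median -3.33). Cenpa, the histone variant that marks the centromere, had scaled log2 signals of 2.48, 2.17, 2.3, 3.67 and 3.15 at day 1, 2.43, 1.77, 2.23, 1.36 and 1.77 at day 4, and 1.19, 0.81, 1.37, 1.15 and 1.63 at day 7. Cenpa then had -0.22, -0.41, -0.2, -0.44 and 0.78 at day 14, and -0.28, -0.53, -0.61 and 0.74 at day 42. Its highest arrays were day 1 replicates 4 and 5, and all day 14 arrays lay below those of day 7. Cenpa differed by -1.33 ± 0.31 at day 14 against day 7 (adjusted p = 0.00567) and by -2.92 ± 0.33 at day 42 against day 1 (adjusted p = 5.51e-07). Ndc80, the namesake of the complex that binds microtubules, had scaled log2 signals of -0.71, -0.29, 0.25, -2.42 and -1.94 at day 1, -2.6, -1.06, -2.35, -1.56 and -0.97 at day 4, and -1.07, -1.56, -1.24, -1.33 and -1.85 at day 7. Ndc80 then had -3.97, -4.26, -2.8, -3.64 and -2.22 at day 14, and -3.18, -4.18, -3.7 and -6.34 at day 42. Here the 5 arrays that stand apart were the low ones of their ages, and the day 14 arrays lay below those of day 7 all the same. Ndc80 differed by -1.97 ± 0.55 at day 14 against day 7 (adjusted p = 0.0202). Spc25, another subunit of the Ndc80 complex, had scaled log2 signals of 4.09, 4.51, 4.71, 2.76 and 2.86 at day 1, 2.12, 3.68, 2.5, 3.51 and 3.78 at day 4, and 3.63, 3.26, 3.69, 2.9 and 3.22 at day 7. Spc25 then had 0.21, 0.06, 0.17, 0.31 and 2.7 at day 14, and 1.13, 0.48, 0.41 and -0.91 at day 42. Apart from replicate 5, the day 14 arrays lay between 0.06 and 0.31. Spc25 had the largest difference of this group, -2.65 ± 0.5 at day 14 against day 7 (adjusted p = 0.00091).

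The remaining subunits of that complex, Nuf2 and Spc24, differed by -2.3 ± 0.46 (adjusted p = 0.00142) and -2.01 ± 0.43 (adjusted p = 0.00253) at day 14 against day 7. Cenpn, which reads the centromeric nucleosome, fell by 1.84 ± 0.22 (adjusted p = 2.02e-05), and Cenpe, a kinetochore motor, by 2.28 ± 0.61 (adjusted p = 0.0155). Cenpk, a subunit of the constitutive centromere network, had -1.84 ± 0.65 (adjusted p = 0.0715), and Cenpf, a large outer kinetochore protein, had -1.57 ± 0.63 (adjusted p = 0.119), with 1 of 5 day 14 arrays well above background. Both passed without the 5 arrays (adjusted p = 0.000355 and 0.0213). Cenpf was well above background on 0 of 4 arrays at day 42 and 3 of 5 at day 1, and was at least 1.77-fold lower at day 42 (adjusted p = 0.00486).

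Of the 4 spindle checkpoint genes, 3 were lower at day 14 than at day 7 (median -1.71) and 4 at day 42 than at day 1 (median -2.62). Bub1, a checkpoint kinase, had scaled log2 signals of -0.75, -0.04, 0.36, -3.21 and -2.63 at day 1, -3.46, -0.92, -3.08, -1.06 and -0.78 at day 4, and -0.77, -1.06, -0.97, -1.02 and -1.8 at day 7. Bub1 then had -3.41, -3.36, -2.81, -3.05 and -1.94 at day 14, and -2.5, -2.79, -2.66 and -6.88 at day 42. The 5 arrays that stand apart were the low arrays of their ages, and no day 14 array reached the day 7 range. The difference was -1.79 ± 0.77 (adjusted p = 0.155) at day 14 against day 7, and adjusted p = 0.000106 without the 5 arrays. At day 42 against day 1 Bub1 differed by -2.45 ± 0.82 (adjusted p = 0.0288). Ttk, the kinase that sets the checkpoint going, had scaled log2 signals of -3.66, -2.87, -2.5, -6.32 and -5.36 at day 1, -5.18, -3.95, -5.2, -4.14 and -3.78 at day 4, and -3.66, -3.86, -3.75, -3.59 and -4.49 at day 7. Ttk then had -7.72, -7.65, -4.42, -7.89 and -5.26 at day 14, and -7.76, -7.56, -6.79 and -6.85 at day 42. Day 14 replicate 3 lay inside the day 7 range and was the only day 14 array well above background for Ttk. That array had the highest share of spots well above background of all 24 (79.7%). The fitted difference was -2.72 ± 0.67 at day 14 against day 7 (adjusted p = 0.00868), with the other 4 day 14 signals not well above background. Ttk was at least 2.87-fold lower at day 42 than at day 1, with 0 of 4 arrays well above background. Bub1b, the checkpoint protein that holds back Cdc20, and Mad2l1, its partner in that task, differed by -1.63 ± 0.24 (adjusted p = 0.000114) and -1.41 ± 0.24 (adjusted p = 0.000397) at day 14 against day 7. The other two Mad2l1 probes were lower by less, at -0.86 ± 0.26 and -0.94 ± 0.18.

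In the group of anaphase and protein destruction 4 of 5 genes fell, and the exception was the securin gene Pttg1. Cdc20, which activates the anaphase-promoting complex, had scaled log2 signals of 4.65, 4.15, 4.33, 6.18 and 5.4 at day 1, 5.01, 4.06, 4.84, 3.64 and 3.94 at day 4, and 3.32, 3.12, 3.64, 3.24 and 3.95 at day 7. Cdc20 then had 0.94, 0.76, 0.88, 0.82 and 3.05 at day 14, and 1.42, 0.9, 1.06 and 2.94 at day 42. Day 14 replicate 5 and day 42 replicate 4 were the high arrays of their ages and lay below all day 7 arrays. Cdc20 differed by -2.17 ± 0.46 at day 14 against day 7 (adjusted p = 0.00253). Cdca3, which helps to trigger mitotic entry, had scaled log2 signals of 2.93, 2.64, 2.79, 4.17 and 3.81 at day 1, 2.95, 2.28, 2.79, 1.94 and 2.18 at day 4, and 1.56, 1.21, 1.74, 1.23 and 1.88 at day 7. Cdca3 then had -1.28, -1.21, -1.17, -1.4 and 0.82 at day 14, and -0.31, -1.0, -1.01 and 0.41 at day 42. All day 7 arrays lay below all day 4 arrays, and those of day 14 below all of day 7. Cdca3 differed by -2.37 ± 0.39 at day 14 against day 7 (adjusted p = 0.000236), the largest of the group.

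Ube2c, the ubiquitin-conjugating enzyme that works with the anaphase-promoting complex, had scaled log2 signals of 2.45, 2.32, 2.34, 3.41 and 3.03 at day 1, 2.47, 1.88, 2.46, 1.63 and 1.76 at day 4, and 1.02, 0.68, 1.08, 1.42 and 1.4 at day 7. Ube2c then had -0.31, -0.36, -0.08, -0.27 and 0.49 at day 14, and -0.96, -1.67, -1.54 and -0.25 at day 42. Its arrays stepped down at every age, and only those of days 42 and 14, and of days 4 and 1, overlapped. Ube2c differed by -1.23 ± 0.28 at day 14 against day 7 (adjusted p = 0.00393) and by -3.81 ± 0.29 at day 42 against day 1 (adjusted p = 3.54e-09). Espl1, the separase that cuts cohesin, differed by -1.76 ± 0.32 at day 14 against day 7 (adjusted p = 0.000663). Ube2c, Pttg1, Smc4 and Nusap1 were picked for full values after these had been seen.

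Pttg1, the inhibitor of separase, had scaled log2 signals of 3.77, 3.52, 3.38, 4.88 and 4.5 at day 1, 4.57, 3.67, 4.4, 3.84 and 3.7 at day 4, and 3.43, 3.69, 3.62, 3.36 and 3.98 at day 7. Pttg1 then had 4.23, 4.29, 4.0, 4.12 and 3.75 at day 14, and 4.09, 4.36, 4.22 and 5.22 at day 42. These lay between 3.36 and 5.22 on all 24 arrays, the 5 arrays that stand apart were the highest of their ages, and the ages overlapped. The difference was 0.46 ± 0.27 (adjusted p = 0.352) at day 14 against day 7 and 0.46 ± 0.29 (adjusted p = 0.267) at day 42 against day 1. Without the 5 arrays Pttg1 was higher at day 14 (adjusted p = 0.0083) and at day 42, by 0.67 ± 0.16 against day 1 (adjusted p = 0.00279). Another probe, A_55_P2110738, was higher by 0.85 ± 0.27 at day 14 against day 7 (adjusted p = 0.0486 over all probes) and by 1.2 ± 0.29 at day 42 against day 1 (adjusted p = 0.00319), both over all 24 arrays.

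**Figure D3:**
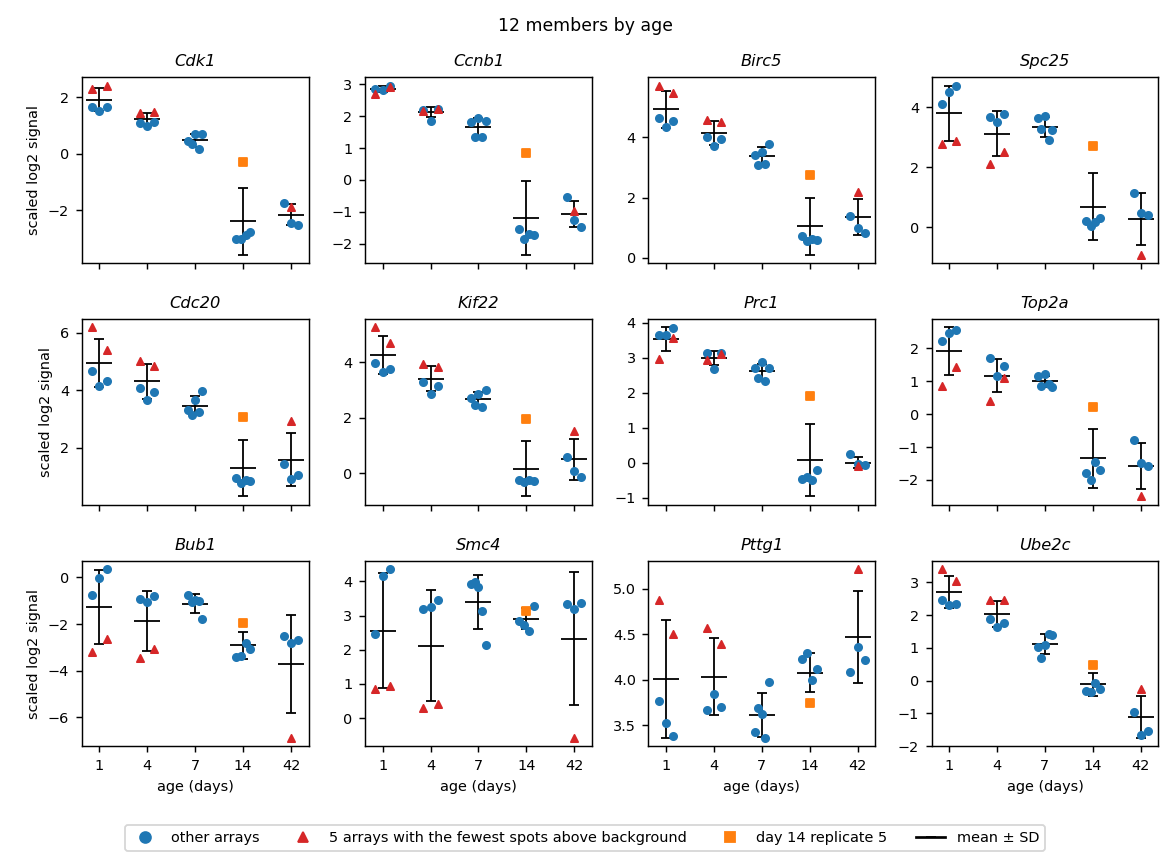
Scaled log2 signal (vertical axis, log2 units above the 75th percentile of the array) against age in days for 12 members, with 1 point per array and bars for the mean ± SD of each age (n = 5, and 4 at day 42). Most genes step down at day 14, day 14 replicate 5 (square) lies above the other 4 day 14 arrays in most panels, Smc4 and Pttg1 overlap between days 7 and 14, and the 5 arrays with the fewest spots above background (triangles) are high for Cdc20 and low for Bub1.

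Of the 9 mitotic kinesins 6 were lower at day 14 than at day 7 (median -1.95) and 7 were lower at day 42 than at day 1 (median -2.96). Kif22, a motor that rides on chromosome arms, had scaled log2 signals of 3.98, 3.65, 3.74, 5.25 and 4.7 at day 1, 3.92, 3.29, 3.81, 2.84 and 3.15 at day 4, and 2.71, 2.44, 2.84, 2.39 and 3.01 at day 7. Kif22 then had -0.25, -0.33, -0.24, -0.29 and 1.95 at day 14, and 0.58, 0.1, -0.15 and 1.52 at day 42. Apart from replicate 5 the day 14 arrays lay between -0.33 and -0.24, and all 5 were below those of day 7. Kif22 had the largest difference of the kinesins, -2.51 ± 0.41 at day 14 against day 7 (adjusted p = 0.000213). Kif11, the motor that pushes spindle poles apart, had scaled log2 signals of -1.96, -1.45, -1.11, -4.55 and -3.89 at day 1, -4.6, -2.38, -4.23, -3.0 and -2.45 at day 4, and -2.19, -2.77, -2.37, -1.99 and -3.49 at day 7. Kif11 then had -5.33, -5.46, -3.83, -4.89 and -3.97 at day 14, and -4.53, -5.28, -5.22 and -7.17 at day 42. The 5 arrays that stand apart were the lowest of their ages, and day 42 and day 1 overlapped through them. Kif11 differed by -2.14 ± 0.63 at day 14 against day 7 (adjusted p = 0.0271) and by -2.96 ± 0.67 at day 42 against day 1 (adjusted p = 0.00164).

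Kif20a and Kif23, motors of the spindle midzone and cytokinesis, differed by -2.49 ± 0.34 (adjusted p = 3.9e-05) and -1.95 ± 0.35 (adjusted p = 0.000502) at day 14 against day 7. Kif2c, which takes microtubules apart at the centromere, differed by -2.36 ± 0.35 (adjusted p = 0.000118), and the chromokinesin Kif4 by -1.77 ± 0.3 (adjusted p = 0.000288). Kif15, which works beside Kif11, had -1.68 ± 0.63 (adjusted p = 0.0902), Kif20b, a further cytokinesis motor, had -1.55 ± 0.89 (adjusted p = 0.33), and Kif18a, which aligns chromosomes, had -0.79 ± 0.8 (adjusted p = 0.692). Kif15 and Kif20b passed without the 5 arrays (adjusted p = 9.82e-05 and 0.0105), and Kif18a did not (0.116). At day 42 against day 1 Kif15 fell by 2.18 ± 0.66 (adjusted p = 0.0164).

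Of the 6 genes of spindle assembly and cytokinesis 4 were lower at day 14 than at day 7 (median -1.94) and 5 at day 42 than at day 1 (median -2.91). Prc1, which bundles the microtubules of the spindle midzone, had scaled log2 signals of 3.65, 3.66, 3.84, 2.97 and 3.57 at day 1, 2.93, 3.15, 3.11, 2.68 and 3.13 at day 4, and 2.71, 2.42, 2.87, 2.35 and 2.72 at day 7. Prc1 then had -0.45, -0.41, -0.48, -0.2 and 1.9 at day 14, and 0.25, -0.04, -0.07 and -0.1 at day 42. The day 14 and day 42 arrays lay below all others, with day 14 replicate 5 between them and day 7. Prc1 differed by -2.54 ± 0.32 at day 14 against day 7 (adjusted p = 2.26e-05). Nusap1, which binds spindle microtubules, had scaled log2 signals of 0.73, 1.42, 1.58, -1.29 and -1.21 at day 1, -1.46, 0.61, -1.28, 0.3 and 0.62 at day 4, and 0.37, 0.21, 0.4, 0.57 and -0.17 at day 7. Nusap1 then had -1.18, -1.32, -0.64, -0.84 and -0.69 at day 14, and -1.61, -2.17, -2.08 and -4.61 at day 42. Every day 14 array lay below every day 7 array, and every day 42 array below every day 14 array. Nusap1 differed by -1.21 ± 0.59 (adjusted p = 0.22) at day 14 against day 7, with adjusted p = 0.000149 without the 5 arrays, and by -2.87 ± 0.62 (adjusted p = 0.00118) at day 42 against day 1. Tpx2, which activates Aurora A on the spindle, differed by -2.29 ± 0.29 (adjusted p = 2.62e-05), the exchange factor Ect2 by -1.88 ± 0.53 (adjusted p = 0.0215) and the contractile ring protein Anln by -1.99 ± 0.37 (adjusted p = 0.000689) at day 14 against day 7. Hmmr, a hyaluronan receptor that also works at spindle poles, had -0.75 ± 0.57 (adjusted p = 0.522), and passed without the 5 arrays (adjusted p = 0.000715).

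Of the 7 genes of chromosome structure 5 were lower at day 14 than at day 7 (median -2.13) and 5 at day 42 than at day 1 (median -2.59). Mki67, the proliferation marker whose protein coats mitotic chromosomes, had scaled log2 signals of 3.66, 4.49, 4.71, 2.79 and 2.92 at day 1, 2.45, 3.57, 2.68, 3.44 and 3.75 at day 4, and 3.76, 3.5, 3.78, 3.43 and 2.72 at day 7. Mki67 then had 0.79, 0.61, 1.1, 1.31 and 2.7 at day 14, and 1.69, 1.06, 1.19 and -0.53 at day 42. The day 14 arrays lay below those of day 7, closely so for replicate 5, and days 1, 4 and 7 overlapped. Mki67 differed by -2.13 ± 0.45 at day 14 against day 7 (adjusted p = 0.00234) and by -2.86 ± 0.48 at day 42 against day 1 (adjusted p = 7.73e-05). Top2a, which untangles sister chromatids, had scaled log2 signals of 2.21, 2.46, 2.57, 0.87 and 1.44 at day 1, 0.4, 1.72, 1.09, 1.17 and 1.47 at day 4, and 1.16, 0.87, 1.21, 0.93 and 0.83 at day 7. Top2a then had -1.8, -1.99, -1.47, -1.7 and 0.22 at day 14, and -0.8, -1.48, -1.58 and -2.5 at day 42. All day 14 and day 42 arrays lay below all day 7 arrays. Top2a differed by -2.35 ± 0.39 at day 14 against day 7 (adjusted p = 0.000277).

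Condensin is the ring that compacts mitotic chromosomes. Ncapg and Ncaph belong to condensin I alone, whereas Smc2 and Smc4 form the core of both condensins. Ncaph differed by -1.39 ± 0.22 at day 14 against day 7 (adjusted p = 0.000147). Ncapg was well above background on 0 of 5 arrays at day 14 and on 4 of 5 at day 7, and was at least 2.62-fold lower at day 14 (adjusted p = 0.0299). Smc2 had scaled log2 signals of 1.18, 2.35, 2.75, -0.67 and -0.45 at day 1, -1.25, 1.4, -1.13, 1.46 and 1.66 at day 4, and 1.93, 1.84, 1.91, 1.08 and 0.4 at day 7. Smc2 then had -0.36, -0.3, -0.49, 0.16 and 0.73 at day 14, and 0.28, 0.07, 0.16 and -2.79 at day 42. Day 7 replicate 5 lay within the day 14 range, and the arrays that stand apart were the lowest of days 1, 4 and 42. Smc2 had -1.48 ± 0.72 (adjusted p = 0.224) at day 14 against day 7, and adjusted p = 0.00196 without the 5 arrays. Smc4 had scaled log2 signals of 2.45, 4.15, 4.36, 0.86 and 0.93 at day 1, 0.29, 3.2, 0.42, 3.25 and 3.46 at day 4, and 3.92, 3.98, 3.83, 3.13 and 2.13 at day 7. Smc4 then had 2.85, 2.71, 2.56, 3.28 and 3.14 at day 14, and 3.33, 3.18, 3.37 and -0.58 at day 42. Leaving the 5 arrays aside, Smc4 lay between 2.13 and 4.36 at all ages. The difference was -0.49 ± 0.81 (adjusted p = 0.856) at day 14 against day 7 and -0.22 ± 0.86 (adjusted p = 0.876) at day 42 against day 1, and without the 5 arrays -0.36 ± 0.46 (adjusted p = 0.555) at day 42 against day 1. Whether Smc4 differs from Ncaph was not tested. Cdca5, the sororin that protects sister cohesion, differed by -2.17 ± 0.42 at day 14 against day 7 (adjusted p = 0.00105).

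Before day 14 the differences were smaller and mostly below 0. At day 4 against day 1, 51 of 52 differences were negative, against 50.3% of all genes, with a median of -0.7 beside 0.00 over all genes. In limma 0 members passed the test, against 0.0189% of all genes that were lower, and 21 had an unadjusted p under 0.05. Without the 5 arrays the median was -0.73 and again 0 passed (all genes, 0.00629%), with 18 at an unadjusted p under 0.05. On those 19 arrays the 3 of day 4 lay below the 3 of day 1 without overlap in 44 of 52 members, against 7.59% of all genes. With day 14 replicate 5 left out too, 12 members passed as lower at day 4, against 0.711% of all genes. They were Prc1, Kif20a, Mad2l1, Anln, Top2a, Tpx2, Bub1b, Melk, Ect2, Hmmr, Kif23 and Kif4. That array belongs to neither age and stood out for the members themselves, as the highest of day 14 in 45 of 52. Leaving it out changed the estimate of spread and not the differences. The share of all genes is therefore not a like comparison for these 12. Within slides 1, 2 and 3 the median was -0.73, -0.42 and -0.73.

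At day 7 against day 4 the median difference was -0.4, beside -0.23 over all genes tested. Of the 52 differences 32 were negative, a smaller share than the 67.0% of all genes. In limma 0 members passed, against 0.00629% of all genes that were lower, and 13 had an unadjusted p under 0.05. Without the 5 arrays the median was -0.34 with 47 negative (all genes, 59.4%), beside -0.04 over all genes. Then 0 passed (all genes, 0.0503%) and 1 had an unadjusted p under 0.05, against 26 when day 14 replicate 5 was left out too. That 26 has the limit given above for leaving out this array. The medians within slides 1, 2 and 3 were -0.13, -0.7 and -0.49. Members with a negative difference at all 3 steps up to day 14 numbered 31, against 20.4% of all genes. On the 19 other arrays they numbered 46, against 13.3%.

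Over the whole first week 23 members were lower at day 7 than at day 1, against 1.88% of all genes, with a median of -0.89 beside -0.21. They included all 4 chromosomal passenger genes and 6 of 8 kinases and cyclins, of which 1 of 4 and 1 of 8 passed without the 5 arrays. Examples were Spc24 (-1.87 ± 0.43, adjusted p = 0.0229), Cdca3 (-1.74 ± 0.39, adjusted p = 0.0197), Ube2c (-1.59 ± 0.28, adjusted p = 0.00486) and Bub1b (-1.34 ± 0.24, adjusted p = 0.00534). Of these 4, Cdca3 did not pass without the 5 arrays (adjusted p = 0.0672). This count rested on single arrays. It was 7 when number 4 of day 1 was left out and 5 when number 5 was. Leaving out number 1, 2, 3 or 4 of day 7 gave 7, 3, 10 and 7. On the 19 arrays left without the 5 it was 16, against 2.35% of all genes, and 8 members passed both ways. The median was then -1.11, beside 0.01 over all genes, and 51 of 52 differences were negative, against 48.4% of all genes. With day 14 replicate 5 left out as well, 41 members passed, the 23 among them, against 4.28% of all genes. That array is of neither age and stood out for the members themselves, so this share is not a like comparison. The medians within slides 1, 2 and 3 were -0.6, -1.06 and -1.23.

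After day 14 the differences were smaller again. At day 42 against day 14 the median difference was -0.18, beside 0.07 over all genes. In limma 0 members passed, against 1.51% of all genes that were lower and 2.2% that were higher, and 2 had an unadjusted p under 0.05. Without the 5 arrays, which leaves 3 arrays at day 42, Ube2c was lower by a difference of -1.28 ± 0.2 (adjusted p = 0.000781) and Nusap1 by -1.02 ± 0.21 (adjusted p = 0.00529), against 6.69% of all genes. With day 14 replicate 5 left out too, these 2 were lower (all genes, 7.3%). Cdk1 (0.68 ± 0.17), Nek2 (0.62 ± 0.18) and Melk (0.51 ± 0.13) then passed as higher at day 42, against 6.89% of all genes. Leaving out that array lowers the day 14 mean of the 45 of 52 members in which it was the highest. A rise in that setting therefore cannot be told from the choice of array. With that array kept and the 5 left out, the 3 genes differed by 0.15 ± 0.45, 0.36 ± 0.27 and 0.07 ± 0.37. At an unadjusted limma p under 0.05, 16 members were higher and 2 lower without these 6 arrays. Of the 15895 genes tested, 4364 were under that line in either direction. The 16 carry the same limit as the 3 genes. In that setting the median member stood at 9.02% of its day 1 level at day 14 and at 9.6% at day 42. The medians within slides 1, 2 and 3 were 0.67, 0.23 and -0.72, and differed in sign. Day 42 replicate 4 and day 14 replicate 5, 2 of the arrays named above, were both on slide 3.

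**Figure D4:**
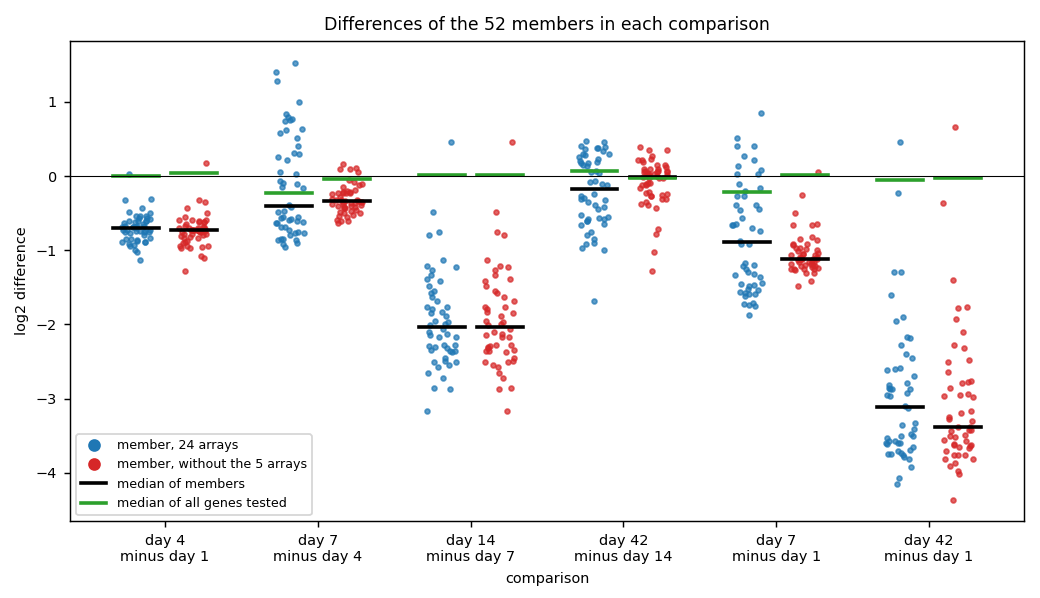
Log2 differences (later minus earlier age) of the 52 members in each of 6 comparisons, with 1 point per member, from all 24 arrays (blue) and without the 5 arrays that stand apart (red). Black lines mark the median of the members and green lines that of all genes tested; the members lie furthest below the green line at day 14 minus day 7 and day 42 minus day 1.

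Over the 6 weeks as a whole, 46 of 52 members were lower at day 42 than at day 1 and 0 were higher, against 13.7% of all genes that were lower and 13.1% that were higher. The median difference was -3.11, beside -0.06 over all genes, and the 41 members lower at day 14 were all among the 46. The largest differences measured at both ages were those of Cdk1, Ccnb1 (-3.92 ± 0.37) and Ube2c. The 6 that did not pass were Pttg1, Kif18a, Kif20b, Hmmr, Smc2 and Smc4. Leaving out the 5 arrays gave 50 lower members and 1 higher, Pttg1, against 23.9% of all genes that were lower and 22.7% that were higher, and Smc4 alone did not pass. All members of each role were then lower, apart from Pttg1 and Smc4. Within slides 1, 2 and 3 the median was -2.66, -3.17 and -3.68, and 47 members were lower on all 3.

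Day 14 replicate 5 lay between the ages, and not for the members alone. On the second principal component of all genes it was at -8.65. The other day 14 arrays were at 40.48 to 48.51 there, and the day 7 arrays at -48.77 to -26.15. The median signal of the members was -1.40, -1.56, -1.34 and -1.41 on day 14 replicates 1 to 4 and 0.18 on replicate 5, against 0.99, 0.74, 0.98, 0.83 and 0.72 on the day 7 arrays. In 45 of 52 members replicate 5 was the highest of the day 14 arrays, and in 39 it lay above the other 4 and below every day 7 array. The gap between replicate 5 and the mean of the other 4 ran from -0.41 to 2.63 with a median of 1.65. Leaving it out with the 5 arrays gave 49 lower and 1 higher member at day 14 against day 7, the same numbers as leaving out the 5 alone (all genes, 21.7% lower). The median member then stood at 9.02% of its day 1 level at day 14.

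Other genes of the same machinery, in lists of non-members, were set beside the members at day 14 against day 7. Of other kinetochore and centromere genes 18 of 38 were lower (median -1.12), with Ska1 (-2.71 ± 0.35) and Ska3 (-2.61 ± 0.34), which hold kinetochores to microtubules, showing the largest differences. Of other spindle and cytokinesis genes 20 of 28 were lower (median -1.9), led by Pimreg (-3.27 ± 0.51) and the kinase Pbk (-2.83 ± 0.54). Of other condensin and cohesin genes 1 of 15 was lower (median -0.26), the condensin I subunit Ncapd2 (-1.5 ± 0.32). Of 17 anaphase-promoting complex subunits and partners 1 was lower (median -0.27), Cdc16 (-0.68 ± 0.16). In the 4 lists limma called 0 genes higher, and 0 were higher at an unadjusted p under 0.05. All 6 genes named here had adjusted p of at most 0.00537, and 5.57% of all genes were lower. Without the 5 arrays the counts were 32, 24, 6 and 7, against 18.2% of all genes.

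Among cell-cycle transcription factors and switches 12 of 30 were lower at day 14 than at day 7 (median -0.41), including the Cdk1-activating phosphatase Cdc25c (-2.85 ± 0.51) and the repressor E2f8 (-2.38 ± 0.29). Foxm1, a transcription factor of late cell-cycle genes, was lower at day 42 than at day 1 by a difference of -3.66 ± 0.38 (adjusted p = 1.85e-07). Of DNA replication genes 22 of 45 were lower at day 14 than at day 7 (median -0.88), among them Rrm2 (-2.24 ± 0.27), which makes deoxyribonucleotides, and of G1 cyclins and kinases 2 of 9. Of 12 cyclin-dependent kinase inhibitors and antiproliferative genes 0 passed in limma at day 14 against day 7, with 2 higher and 1 lower at an unadjusted p under 0.05. With the 5 arrays left out 2 genes of that list were higher and 2 lower, against 20.4% and 18.2% of all genes. At day 42 against day 1 these were 3 and 2, against 22.7% and 23.9%. Over all 24 arrays the inhibitor Cdkn2a (1.02 ± 0.36) and the antiproliferative Btg2 (0.92 ± 0.3) were higher at day 42 than at day 1. In that comparison 3 genes were lower, Cdkn1c (-1.83 ± 0.33) among them. These 2 and 3 of 12 stand beside 13.1% of all genes that were higher and 13.7% that were lower. At day 42 against day 1 35 of 45 DNA replication genes were lower (median -1.54), beside 46 of 52 members. With the 5 arrays left out, 16 of 30 transcription factors and switches, 39 of 45 replication genes and 5 of 9 G1 genes were lower at day 14 than at day 7, and 41 of 45 replication genes at day 42 than at day 1. Of all genes 18.2% and 23.9% were lower in these 2 comparisons. No test between lists was made.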

How the data were processed

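Total RNA of 24 mouse lung samples was labelled with Cy3 and hybridized to 1-colour arrays, per the labels' protocols. The processed signal, a background-subtracted intensity, came from Agilent's Feature Extraction, whose version is 10.7.3.1 per the file headers and 10.7.1.1 per the submitters' processing notes. The authors deposited a separate table of log2 values for 52095 probes, with column medians of 5.66 to 6.26. They tracked log2 of the processed signal on the same array, and how the arrays were shifted against each other is not given in the sources used here.

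The analysis used log2 of the processed signal minus each array's 75th percentile. Control spots and those marked not uniform or as outliers were dropped, and spots of a probe were averaged. Probes were named by RefSeq transcript through a GRCm38.p6 gene table. This gave 1 symbol to 25998 of 55681 probes and left 29545 unnamed, after 138 had been dropped. A gene was represented by its brightest probe and tested if 4 arrays or more had that probe well above background. No spot was saturated (0 on all arrays).

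Comparisons between ages used limma (version 3.58.1, under R 4.3.3) with a mean for each age fitted over the 24 arrays together and a threshold of 0.05 on the adjusted p. The prior had 2.96 degrees of freedom, and the scripts were tested on simulated data. The members, gene lists, rules and tests were chosen with earlier results of these data known. Members with values on every array were taken from textbook standing or as the largest change of their role at day 14 against day 7, and 4 more are named in the text. Alternatives were other background corrections and scalings, the authors' table, other filters and probe rules, slide and replicate as blocks, and arrays left out. In place of the mean spot signal the scans hold the median, which normexp (offset 50) used. Precision is limited by the number of arrays.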

Additional observations from a re-analysis of the deposited data

Results flagged for a closer look

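On day 14 replicate 5 the median of the members was 0.18, far from the other 4 day 14 arrays by Dixon's criterion. The same array was set apart and high for Cdk1 (-0.29), Ccnb1 (0.85), Plk1 (1.53), Birc5 (2.74), Cenpa (0.78), Spc25 (2.7), Cdc20 (3.05), Cdca3 (0.82), Kif22 (1.95), Prc1 (1.9) and Top2a (0.22), each a scaled log2 signal. Over all 52 members this array was past the criterion for 27.

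Day 42 replicate 4, which is among the 5 arrays with the fewest spots well above background, was set apart and low for Bub1 (-6.88), Smc2 (-2.79) and Smc4 (-0.58). Among the members listed with every array, further low values were those of Bub1 on day 7 replicate 5 (-1.8) and Ccnb1 on day 4 replicate 4 (1.85). Over all 52 members, day 42 replicate 4 was past the criterion and low for 6. Day 7 replicate 5 was so for 3, day 7 replicate 2 for 2 and day 4 replicate 4 for 1. In all 39 of 260 combinations of member and age were past the criterion, whereas chance gives about 1 in 20. The members move together, so these are not independent.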

How the results depend on the processing

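At day 14 against day 7, 35 to 50 members passed under the alternatives to the 41 reported (37 to 42 with each array left out in turn), and at day 42 against day 1 37 to 51 passed, against 46 (43 to 47 with each array left out). The lowest of these came from a filter on all 24 arrays, which tested 41 members. The F-test over all ages gave 37 to 50, against 45 (44 to 46 with each array left out). For day 7 against day 1 median scaling gave 9 and leaving out the 5 arrays and day 14 replicate 5 gave 41, against 23, and single arrays moved the count between 3 and 26. For day 4 against day 1 the authors' table gave 1 and leaving out those 6 arrays gave 12, against 0, with 0 to 1 for single arrays. For day 42 against day 14 quantile normalization, the authors' table and the mean of a gene's probes gave 1 each, leaving out the 5 arrays 2 and the 6 arrays 5, against 0, with 0 to 1 for single arrays. For day 7 against day 4 all alternatives gave 0. Counts without the 6 arrays have the limit given above, since day 14 replicate 5 stood out for the members themselves. Apart from the fewer arrays or genes that these settings hold, the causes were not tested.

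The replicate numbers gave no sign of pairing the samples. The median correlation of deviations was -0.01 for same-numbered pairs and 0.02 for other pairs. Among the 46 same-numbered pairs it ran from -0.85 to 0.88, and 16 were over 0.1. With a replicate block 41 members passed at day 14 against day 7, 22 at day 7 against day 1 and 45 at day 42 against day 1, and 0 in the other comparisons. Median scaling moved the median difference of all genes to -0.15 at day 14 against day 7, beside 0.02, and 880 of its 1312 calls were lower, against 885 of 1842. Of 110 differences of single members that had passed, 1292 recalculations kept direction and call, 49 lost the call and 1 turned round, the Cdk1 probe A_55_P2016647 (1.085 at day 14 against day 7), a setting added after the data were seen. With single arrays left out 2503 were unchanged and 137 lost the call. The normexp correction used the median spot signal because the planned mean is not in the scans used here. Members dim at days 14 and 42 (Aurkb, Cenpf, Ttk, Ncapg) have bounds and no measured fold at the ages where no array was well above background.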
